A study of Mus musculus with 30 samples.

Results

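Enhancers are stretches of DNA that raise the transcription of genes at a distance, and those in use are themselves transcribed by RNA polymerase II into enhancer RNAs (eRNAs). The regions described here are 2017 of the 15438 enhancer rows of a nascent RNA study in mouse embryonic stem cells. They were selected on 1 measured value, the mean normalised count over the 0 h libraries: they are the rows whose mean normalised count before treatment was 50 or more in the authors' deposited eRNA table, and the same row names were followed in the eRNA tables of 3, 6 and 12 h. The level of a row is not corrected for its length. The tables identify a row by a number alone (ENH1 to ENH15438), so the position, neighbouring genes, sequence and chromatin marks of these enhancers were not analysed here, and that they are enhancers rests on the authors' naming.

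The cells were E14 mouse embryonic stem cells, kept undifferentiated in serum medium with leukaemia inhibitory factor and inhibitors of GSK3 and MEK. All lines carry osTIR1, the plant F-box protein that lets auxin direct a tagged protein to the proteasome, and the SPT16-AID lines also carry a mini-AID degron with a V5 tag at the C terminus of SPT16. New RNA was labelled for 5 min with 4-thiouridine and sequenced (TT-seq). By their titles, the libraries tied to the 0 h table are 2 of untagged cells and 2 of SPT16-AID cells. Those tied to each later table are 2 of untagged cells with auxin (3-IAA, 500 nM), 2 of SPT16-AID cells with ethanol, the vehicle, and 2 of SPT16-AID cells with 3-IAA. In the tagged groups these are 1 library of Clone1 and 1 of Clone2. The tag and treatment fields of many libraries contradict their titles, and the groups follow the titles. The labels do not state which of these groups a table compares or in which direction, so changes are given as positive or negative as the tables sign them. The tables hold no values per library, so no spread between libraries can be given beside the authors' standard errors, and the depth of the time-course libraries is unknown.

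SPT16 and SSRP1 form FACT, a histone chaperone that takes H2A-H2B dimers off nucleosomes ahead of RNA polymerase II and puts them back behind it. eRNAs are short, mostly unspliced and quickly destroyed, so steady-state RNA sequencing misses many of them. A brief label of new RNA captures them before decay, and their amount is widely read as a measure of how active an enhancer is. In embryonic stem cells, enhancers bound by the pluripotency factors OCT4, SOX2 and NANOG are among the most transcribed.

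The 2017 high-count enhancers made up 13.1% of the rows and held 94.7% of the summed mean counts of the authors' deposited eRNA table at 0 h. Their mean counts ran from 50.1 to 352553 with a median of 91.4 (quartiles 68.0 and 146) in the authors' deposited eRNA table. Most lay close to the threshold, since 1123 were between 50 and 100, a further 864 between 100 and 1000, and 30 at 1000 or more. Those 30 rows alone held 81.1% of all counts in enhancer rows at 0 h in the authors' deposited eRNA table, and the first 9 held 74.7%. Whether the counts of these 30 rows are RNA made from enhancers cannot be told without coordinates and was not tested. The row of highest count was ENH14975 (352553, 19.1% of the total), followed by ENH14729 (204503), ENH14321 (165907), ENH14578 (158629) and ENH14533 (154391) in the authors' deposited eRNA table.

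**Figure D1:**
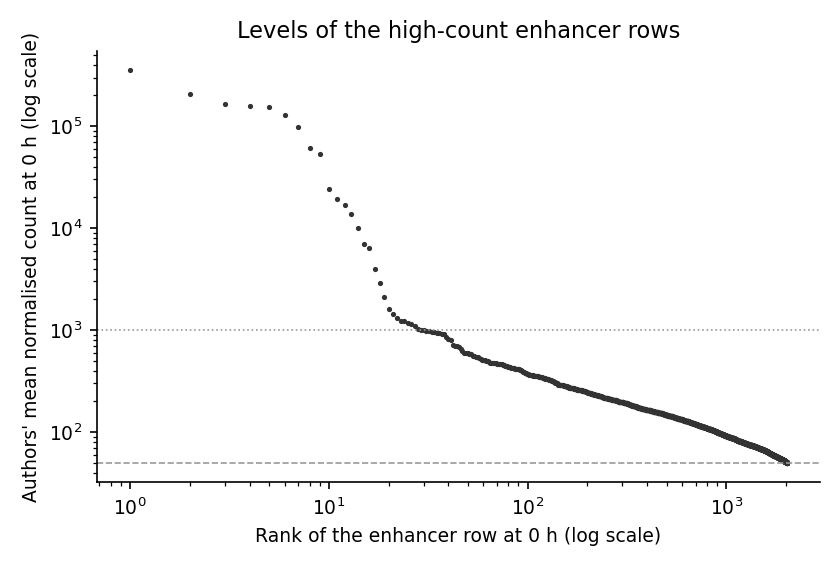
Mean normalised count of each of the 2017 high-count enhancer rows at 0 h (vertical axis, log scale, the authors' value) against its rank (horizontal axis, log scale). The dashed line marks 50 and the dotted line 1000. The 30 rows above 1000 rise steeply to 352553, while the other 1987 rows spread below them down to 50.1.

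The same rows dominated every later table. The 30 rows took 92.3% of the summed mean counts at 3 h, 96.9% at 6 h and 96.2% at 12 h in the authors' deposited eRNA tables. The remaining 1987 high-count enhancers held 13.6% at 0 h, 5.75% at 3 h, 2.36% at 6 h and 2.81% at 12 h in the authors' deposited eRNA tables. These are shares within a table, each averaged over the libraries that went into it. Each table has its own scaling, so mean counts of different tables are not on 1 scale, and 816 of the members had a mean count under 50 at 3 h, 1471 at 6 h and 1440 at 12 h in the authors' deposited eRNA tables. Over the 2017 rows the order of the mean counts had a Spearman correlation with the order at 0 h of 0.88 at 3 h, 0.81 at 6 h and 0.72 at 12 h, as a description of points that share their libraries.

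At the edge of the rule, ENH8161 (50.1), ENH3958 (50.2) and ENH880 (50.3) were just inside, and ENH1494 (49.95), ENH4595 (49.94) and ENH9207 (49.93) just outside, by their mean counts at 0 h in the authors' deposited eRNA table. None of these 6 rows was called at a later time, and only ENH8161 had an adjusted p at 3 h. At 12 h the inner 3 stood at −0.03, −0.71 and −0.09 and the outer 3 at −0.75, 0.45 and 0.91 (shrunken log2 fold change) in the authors' deposited eRNA table, so the rows on either side of the threshold overlapped.

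Before auxin no enhancer passed. A row is called here where the authors' adjusted p is under 0.05, and at 0 h 0 of the 11964 rows with an adjusted p were called (0%) in the authors' deposited eRNA table, with 27 positive and 10 negative high-count enhancers at an unadjusted p under 0.05. The log2 fold changes are shrunken, that is, pulled toward 0, by an amount that depends on the table as well as on the noise of the row. At 0 h the shrinkage set 2009 of the 2017 values to within 0.01 of 0, among them that of ENH14975 (1.35e-06), the row of highest count. The other 8 values were all positive, and 6 of these rows belong to the 30 of highest count. ENH4418 stood at 1.03 ± 0.32 (shrunken log2 fold change ± SE, p = 7.85e-05), ENH14877 at 0.92 ± 0.35 and ENH14729 at 0.90 ± 0.34 in the authors' deposited eRNA table at 0 h. These values come from the table that chose the rows and are a description.

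The later tables belong to the hours after auxin was added to the medium. Auxin removes the SPT16 protein, which these RNA tables do not measure, so its loss was not checked here. High-count enhancers had 75 positive and 0 negative calls at 3 h, 103 positive and 21 negative at 6 h, and 13 positive and 109 negative at 12 h in the authors' deposited eRNA tables. Calls at 3 h and 6 h were thus mostly positive and at 12 h mostly negative. The low-count filter of the authors' adjustment left 1409, 1883 and 2013 of the 2017 rows with an adjusted p at 3, 6 and 12 h, so 5.32%, 6.59% and 6.06% of these were called. Of all enhancer rows with an adjusted p, 5.42% were called at 3 h (5.42% positive and 0% negative), 6.91% at 6 h (6% positive and 0.919% negative) and 4.56% at 12 h (2.54% positive and 2.01% negative) in the authors' deposited eRNA tables. At 3 h the high-count rows were 1409 of the 1440 rows tested, so the 2 shares there are nearly the same set. At 6 h the high-count rows had 5.47% positive and 1.12% negative calls, both near the background. At 12 h they had 0.646% positive calls, under the 2.54% of all rows, and 5.41% negative calls, above the 2.01% of all rows. Of the 6056 rows tested there, 4043 had a mean count under 50 at 0 h. Such rows pass the low-count filter through the libraries in which they are high, which bears on both shares of all rows. The part of the filter and of low counts in this difference was not tested.

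Calls among the rest of the enhancers at 12 h were mostly positive, although 46.2% of these rows were positive in sign and their median was −0.018. Among rows with a mean count under 50 at 0 h, 141 were positive and 13 negative of 4043 with an adjusted p (3.49% and 0.322%) in the authors' deposited eRNA table. Rows in that set pass the filter through the libraries in which they are high, so neither their positive nor their negative share is a count over all low-count rows. All high-count rows together had a median shrunken log2 fold change of −0.0012 at 3 h, −0.038 at 6 h and −0.21 at 12 h, beside −0.0019, −0.0029 and −0.020 over all enhancer rows with a value, in the authors' deposited eRNA tables. The strength of shrinkage can differ between tables, so shrunken values of different times are not on 1 scale. The median SE over all enhancer rows was 0.16, 0.32 and 0.54 at 3, 6 and 12 h. The part of shrinkage in the course over time was not tested. Positive signs made up 48.9% of the high-count rows at 3 h, 42.5% at 6 h and 33.1% at 12 h, against 42.3%, 48.3% and 43.9% of all rows. At an unadjusted p under 0.05 there were 206 positive and 23 negative high-count rows at 3 h, 239 and 136 at 6 h, and 85 and 438 at 12 h in the authors' deposited eRNA tables. The medians had the opposite sign, 0.053 at 3 h, 0.12 at 6 h and 0.025 at 12 h, in the 475 rows whose mean count was 50 or more in all 4 tables, a rule that also selects on the later libraries. The difference between high-count and other rows, and that between times, was not tested. In these bulk libraries, a change in the number of cells using an enhancer and a change in RNA per cell cannot be told apart.

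**Figure D2:**
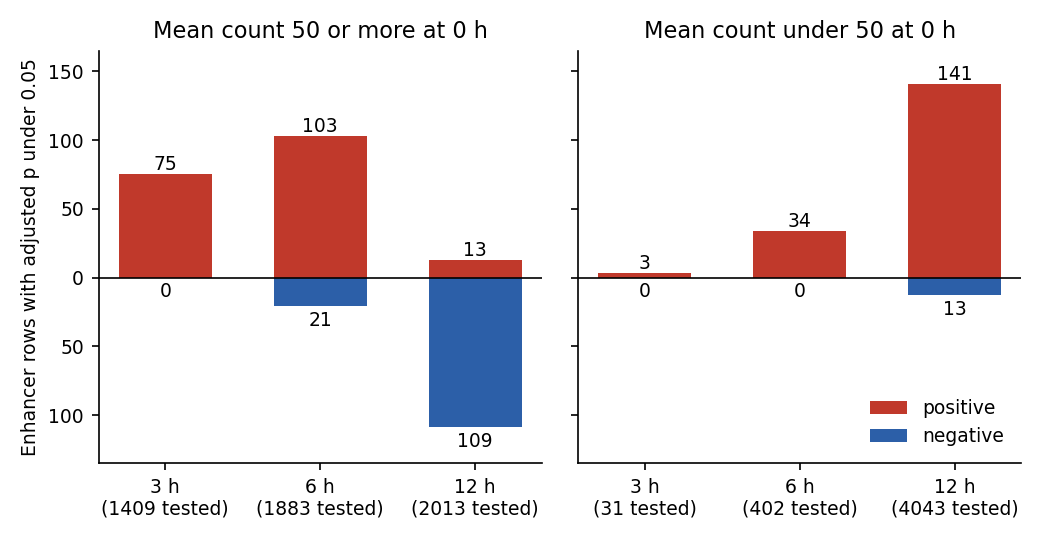
Number of enhancer rows with an authors' adjusted p under 0.05 (vertical axis, positive calls above 0 and negative calls below) at 3, 6 and 12 h, for rows of mean count 50 or more at 0 h (left) and under 50 (right), with the number of rows that had an adjusted p under each time. The 109 negative calls of the high-count rows at 12 h stand against 13 in the other rows, which pass the low-count filter through the libraries in which they are high.

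At 3 h all 75 calls were positive, between 0.69 and 1.80 on the shrunken log2 scale with a median of 1.04, in the authors' deposited eRNA table. The called rows had a median mean count at 0 h of 158, against 91.4 for all high-count rows, and 9 of them were among the 30 rows of highest count. ENH14701 led at 1.80 ± 0.45 (the shrunken log2 value with its SE, adjusted p = 0.00171), followed by ENH14662 at 1.77 ± 0.43 (adjusted p = 0.00149) in the authors' deposited eRNA table. ENH4418, which had the smallest p at 0 h, was at 1.76 ± 0.41 (adjusted p = 0.00149) at 3 h in the authors' deposited eRNA table. The next were ENH14552 (1.74), ENH14378 (1.59) and ENH14877 (1.58) in the authors' deposited eRNA table at 3 h. All 6 leading rows were thus rows of very high count, from 971 to 129977 at 0 h in the authors' deposited eRNA table.

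These 6 leading rows passed at no later time. ENH14701 stood at 0.22 ± 0.40 (adjusted p = 0.363) at 6 h and 0.14 ± 0.51 (adjusted p = 0.775) at 12 h in the authors' deposited eRNA tables. ENH4418 stood at 0.25 ± 0.43 (adjusted p = 0.304) at 6 h and 0.09 ± 0.50 (adjusted p = 0.861) at 12 h in the authors' deposited eRNA tables. Of the 8 rows whose value at 0 h was more than 0.01 from 0, 4 were called positive at 3 h, namely ENH4418, ENH14877, ENH14729 and ENH14378. Over the 75 rows called at 3 h, 9 had an unadjusted p under 0.05 with a positive sign at 0 h and 0 with a negative sign in the authors' deposited eRNA table, and the part of differences present before auxin in the 3 h calls was not tested.

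At 6 h the 103 positive rows lay between 0.83 and 1.98, with a median of 1.20, and the 21 negative rows between −1.89 and −0.82, with a median of −1.03, in the authors' deposited eRNA table. The positive rows were of lower count than those of 3 h, with a median of 88.5 at 0 h and 2 among the 30 highest, whereas the negative rows had a median of 159. ENH12598 was highest at 1.98 ± 0.47 (adjusted p = 0.000608), then ENH406 at 1.90 ± 0.47 (adjusted p = 0.000785), in the authors' deposited eRNA table at 6 h. ENH9964 (1.85), ENH1335 (1.83), ENH8291 (1.81) and ENH566 (1.79) followed in the authors' deposited eRNA table at 6 h. Of these 6, all but ENH406 had also been called at 3 h, between 0.84 for ENH566 and 1.03 for ENH12598, in the authors' deposited eRNA table.

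The negative end at 6 h was led by ENH3038 (−1.89 ± 0.75, adjusted p = 0.0178) and ENH15018 (−1.80 ± 0.76, adjusted p = 0.0236) in the authors' deposited eRNA table. ENH4343 (−1.57), ENH6918 (−1.36), ENH8635 (−1.31) and ENH8464 (−1.26) came next in the authors' deposited eRNA table at 6 h. The mean counts of these 6 rows at 6 h were small, from 14.8 for ENH3038 to 29.3 for ENH8464. The lowest mean count of a high-count row with an adjusted p there was 13.7. At 3 h the same 6 rows had lain between −0.08 for ENH8464 and 0.002 for ENH4343, none of them called and ENH3038, ENH15018 and ENH4343 without an adjusted p, in the authors' deposited eRNA table. At 12 h ENH4343 (−1.69), ENH8635 (−1.64) and ENH8464 (−2.55) were called again, while ENH3038 (−1.30, adjusted p = 0.129), ENH15018 (−1.58, adjusted p = 0.0681) and ENH6918 (−0.41, adjusted p = 0.466) were not, in the authors' deposited eRNA table.

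At 12 h the 109 negative rows lay between −5.03 and −1.16 with a median of −1.66, and the 13 positive rows between 1.19 and 1.97 with a median of 1.58, in the authors' deposited eRNA table. The most negative row was ENH15021 at −5.03 ± 2.42 (adjusted p = 0.0167), and ENH5286 came next at −4.40 ± 1.35 (adjusted p = 0.0173), in the authors' deposited eRNA table. Their SEs were wide and their counts small, with mean counts of 8.32 and 15.4 at 12 h in the authors' deposited eRNA table. ENH8602 (−3.64), ENH1434 (−3.20), ENH9923 (−2.98) and ENH14941 (−2.78) followed in the authors' deposited eRNA table at 12 h, also from mean counts of 10.1 to 15.6 there. None of these 6 rows was called at 6 h (ENH15021, ENH8602 and ENH9923 had no adjusted p there), when they lay between −0.76 for ENH1434 and −0.18 for ENH9923 in the authors' deposited eRNA table.

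The positive end at 12 h held low-count members of the set. ENH7133 was highest at 1.97 ± 0.47 (adjusted p = 0.00111), with ENH14436 at 1.75 ± 0.49 (adjusted p = 0.00517), in the authors' deposited eRNA table at 12 h. ENH10356 (1.73), ENH8016 (1.71), ENH7784 (1.69) and ENH14884 (1.65) came next in the authors' deposited eRNA table. Of the 13 positive rows 12 had a mean count at 0 h under 100, and the exception was ENH7784 (107), in the authors' deposited eRNA table. The median at 0 h was 61.7 for the positive rows and 150 for the negative rows, and 2 negative rows, ENH504 and ENH1516, were among the 30 of highest count.

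Followed over time, 273 of the 2017 rows (13.5%) were called at least once and 1744 never. Only 1399 of the 2017 rows had an adjusted p at all 3 times, so a missing call can also mean a row without an adjusted p. The same share over all enhancer rows was not computed. No row was called with opposite signs at 2 times. The most frequent patterns were negative at 12 h alone (100 rows), positive at 6 h alone (65 rows), positive at 3 h alone (40 rows) and positive at 3 h and 6 h (34 rows). A negative call at 6 h was followed by a negative call at 12 h in 9 rows and by none in 12. Positive calls at 12 h had no call before in 9 rows, 1 at 6 h in 3 rows, and calls at both times in ENH7784 alone. Of these 13 rows only 8 had an adjusted p at 3 h, so the others could not be called there. ENH7784 stood at 1.08 ± 0.38 (adjusted p = 0.00998) at 3 h, 1.11 ± 0.48 (adjusted p = 0.0297) at 6 h and 1.69 ± 0.74 (adjusted p = 0.048) at 12 h in the authors' deposited eRNA tables.

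Positive calls of 3 h and 6 h were shared in 35 rows, which is 46.7% of the 75 at 3 h and 34.0% of the 103 at 6 h. Between 6 h and 12 h the shared positive rows were 4, or 3.88% of the 103 and 30.8% of the 13. The shared negative rows were 9, or 42.9% of the 21 at 6 h and 8.26% of the 109 at 12 h. Of the 103 rows positive at 6 h, 96 had an adjusted p at 3 h, and of the 109 negative at 12 h, 106 had it at 6 h. The shared part over all enhancer rows was not computed, so these shares have no background beside them. Per the labels the tables of different times use different libraries, but of the same lines. Rows called positive at 3 h were positive in sign in 75 of 75 cases at 6 h and in 71 of 75 at 12 h, where 42.5% and 33.1% of all high-count rows were. Their median went from 1.04 at 3 h to 0.83 at 6 h and 0.32 at 12 h in the authors' deposited eRNA tables, and the first of these is set by the choice of rows. Shrunken values of different times are not on 1 scale. Rows called negative at 12 h had a median of −0.034 at 3 h and −0.27 at 6 h, and were negative in sign in 92 and 104 of 109 cases in the authors' deposited eRNA tables. Of all high-count rows, 48.9% and 42.5% were positive in sign at these times. Only 4 of the 109 rows at 3 h and 32 at 6 h were negative with an unadjusted p under 0.05.

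**Figure D3:**
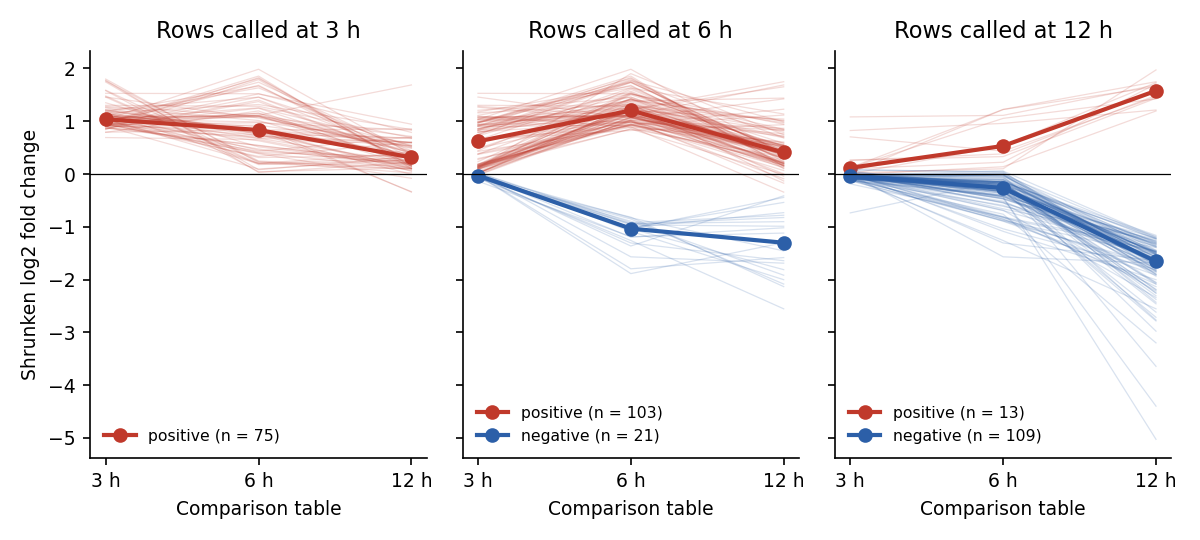
Shrunken log2 fold change in the authors' deposited eRNA tables (vertical axis) at 3, 6 and 12 h (horizontal axis) for high-count enhancers called at 3 h (left), 6 h (middle) and 12 h (right). Thin lines are single rows, thick lines with points the median of the positive (red) and negative (blue) rows. The 75 rows positive at 3 h came down to a median of 0.32 at 12 h, and the 109 rows negative at 12 h were at −0.27 at 6 h.

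Of the 47 rows called at 2 or more times, most had both calls at 3 h and 6 h. ENH1166 stood at 1.53 ± 0.42 (adjusted p = 0.00234) at 3 h and 1.52 ± 0.44 (adjusted p = 0.00332) at 6 h in the authors' deposited eRNA tables. ENH4450 was at 1.30 ± 0.39 and then 1.28 ± 0.40 in the authors' deposited eRNA tables of the same times. Both were lower at 12 h, at 0.79 (adjusted p = 0.238) and 0.69 (adjusted p = 0.277), without passing. The other rows of firmest repeated calls at 3 h and 6 h were ENH12133 (1.11, then 1.63), ENH6409 (1.18, then 1.66), ENH2696 (1.16, then 1.32), ENH8752 (0.97, then 1.68), ENH3704 (1.03, then 1.25), ENH5086 (1.07, then 1.10), ENH9964, ENH8291 and ENH1963 (1.27, then 1.01) in the authors' deposited eRNA tables. ENH8752 is the only one of them among the 30 rows of highest count. Among the 12 rows of firmest repeated calls, ENH14436 alone had its calls at 6 h (1.22 ± 0.44, adjusted p = 0.0131) and 12 h in the authors' deposited eRNA tables.

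The change at 12 h followed the level at 0 h over most of the range. Rows of 50 to 75 had a median shrunken log2 fold change of −0.12 at 12 h, rows of 75 to 100 of −0.19, rows of 100 to 150 of −0.25, rows of 150 to 300 of −0.38 and rows of 300 to 1000 of −0.51, in the authors' deposited eRNA table. Negative calls made up 2.24%, 3.68%, 5.88%, 10.4% and 14.4% of the rows with an adjusted p in these 5 classes, and positive calls 1.40%, 0.490%, 0.245%, 0% and 0%. Positive signs made up 37.4%, 33.5%, 32.6%, 25.2% and 18.9% of the rows in these classes, and the median SE was 0.44, 0.42, 0.42, 0.43 and 0.45. The part of count depth and shrinkage in this course was not tested. At 6 h the same classes ran from −0.025 and −0.018 to −0.046, −0.079 and −0.066, and at 3 h all 5 lay between −0.0052 and 0.0099, in the authors' deposited eRNA tables. Class limits were chosen after the values were seen.

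**Figure D4:**
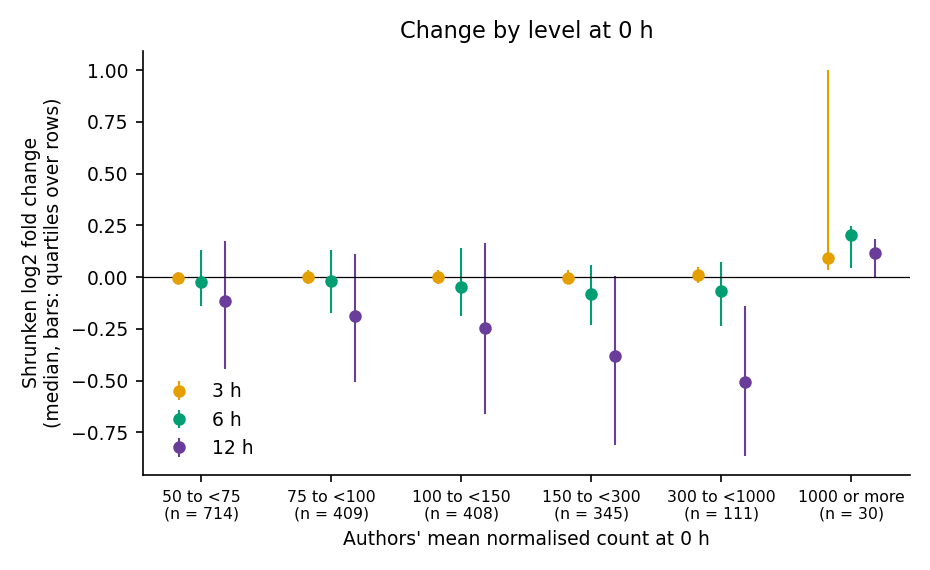
Median shrunken log2 fold change (points, bars from the lower to the upper quartile over rows) of high-count enhancers in 6 classes of mean count at 0 h (horizontal axis, number of rows in brackets), at 3, 6 and 12 h. At 12 h the median goes from −0.12 in the lowest class to −0.51 at 300 to 1000, and stands at 0.12 in the 30 rows of 1000 or more.

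**Figure D5:**
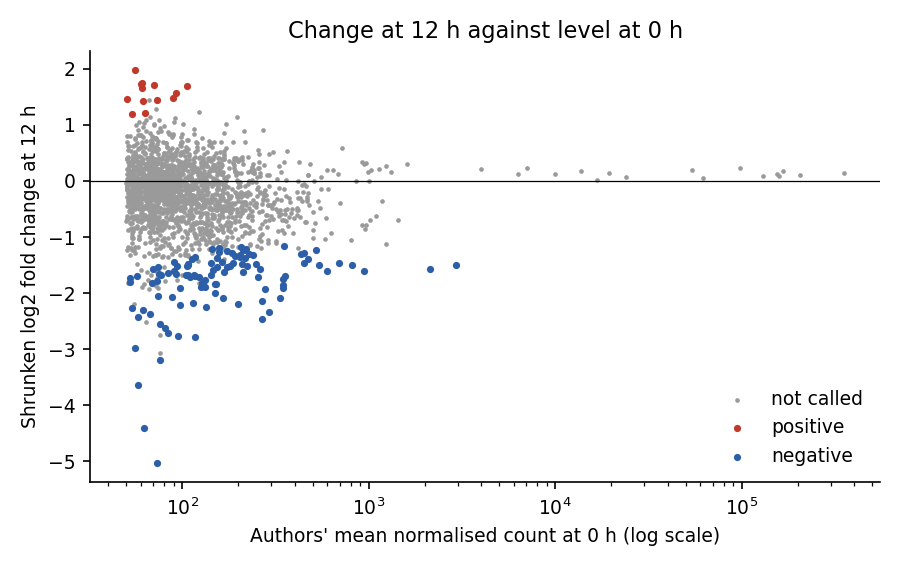
Shrunken log2 fold change at 12 h (vertical axis) against mean normalised count at 0 h (horizontal axis, log scale) for the 2017 high-count enhancers, with positive calls in red, negative calls in blue and other rows in grey. The 13 positive calls lie at mean counts from 50.8 to 107, the negative calls from 52.3 to 2927, and the first 15 rows by count lie between 0.022 and 0.23.

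The 30 rows of highest count had medians of the other sign. Their median was 0.09 at 3 h, 0.20 at 6 h and 0.12 at 12 h, with 24, 24 and 22 of the 30 positive in sign, in the authors' deposited eRNA tables. At 0 h, before auxin, 25 of the 30 (83.3%) were already positive in sign, with 24 of the 30 values within 0.01 of 0. The 30 rows had 9 positive calls at 3 h, or 31.0% of the 29 with an adjusted p, beside 5.42% of all rows. At 6 h they had 2 (ENH2324 and ENH8752), or 6.67% of 30, beside 6% positive of all rows. At 12 h they had 2 negative calls, or 7.41% of the 27 with an adjusted p, beside 2.01% of all rows. The first 15 rows by count were all positive in sign at 0 h and at all 3 later times. They lay between 0.030 and 1.80 at 3 h, 0.030 and 0.46 at 6 h and 0.022 and 0.23 at 12 h, in the authors' deposited eRNA tables. Within them 6 were called at 3 h and 0 at 6 h or 12 h, where the smallest unadjusted p was 0.0607 and 0.335. The highest-count rows with an adjusted p at all 3 later times and no call were ENH14975, ENH14578, ENH14533, ENH14537 and ENH3594. ENH14975 was at 0.04 ± 0.16 (adjusted p = 0.668), 0.22 ± 0.40 (adjusted p = 0.368) and 0.14 ± 0.50 (adjusted p = 0.769) at 3, 6 and 12 h in the authors' deposited eRNA tables. ENH14578 was at 0.09, 0.24 and 0.08, ENH14533 at 0.10, 0.46 and 0.13, ENH14537 at 0.05, 0.23 and 0.23, and ENH3594 at 0.07, 0.21 and 0.05 in the same authors' deposited eRNA tables. The 2 negative rows of 12 h were further down the list, ENH504 (−1.49, adjusted p = 0.0322) and ENH1516 (−1.57, adjusted p = 0.025), with mean counts of 2927 and 2127 at 0 h in the authors' deposited eRNA tables. Because a few rows take nearly all enhancer counts, a share of counts in any other row depends on them, and their part in the other rows' values was not tested. Leaving the 30 rows out, the counts of calls were 66 positive and 0 negative at 3 h, 101 and 21 at 6 h, and 13 and 107 at 12 h.

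The most similar class in the study is that of DNase-hypersensitive sites (DHSs), places where open chromatin is cut by DNase I, which include enhancers and promoters. With the same minimum of 50 at 0 h, 1502 of 70586 DHS rows were kept, with a median mean count of 102. They had 4 positive and 0 negative calls at 3 h, 24 and 32 at 6 h, and 29 and 291 at 12 h in the authors' deposited tables. Over all DHS rows with an adjusted p, the background was 0.0123% positive and 0% negative at 3 h, 1.36% (48 of 3530) and 0.963% (34) at 6 h, and 3.6% (203 of 5638) and 5.73% (323) at 12 h in the authors' deposited tables. The 4 DHS calls at 3 h were adjusted over 32517 rows and the 75 enhancer calls over 1440. Adjusted over every enhancer row with a p, 16 enhancer calls were left at 3 h. At 12 h 19.4% of high-count DHSs were negative and 1.94% positive, beside 5.41% and 0.646% of high-count enhancers, in the authors' deposited tables. The median at 12 h was −0.40 for DHSs and −0.21 for enhancers, and DHS classes went from −0.17 at 50 to 75 through −0.87 at 300 to 1000 to −1.16 at 1000 or more in the authors' deposited tables. In the highest class the medians of the 2 kinds of row had opposite signs (0.12 for enhancers), but the calls at 12 h were negative in both. They were 30 of 40 DHS rows and 2 of the 27 enhancer rows with an adjusted p, with 0 positive calls in either. Whether an enhancer row and a DHS row cover the same place was not analysed here, the tables were adjusted separately, and the differences between the 2 classes were not tested.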

How the data were processed

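TT-seq libraries of the time course were compared by the authors, who deposited 1 table per time for enhancer rows and 1 for DHS rows. Per the file headers each row holds a mean over libraries of the normalised read signal (baseMean), a log2 fold change with its standard error, and the p-value before and after adjustment. These are the column names of a DESeq2 results table, and the version, counting and coordinates are not given in the sources used here. Per the submitters' processing notes reads were handled with STAR and deepTools on mm10. The deposited log2 fold changes are shrunken, as their values show. The adjusted p in each eRNA table equals a Benjamini-Hochberg adjustment over the rows kept, so no test was refitted.

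Python 3.11.15 with pandas 2.3.3 was used. Level classes and the split at 1000 were set after the values were seen. Members had a baseMean of at least 50 at 0 h, a call needed an adjusted p under 0.05, and the alternatives were thresholds of 0.01 and 0.1, adjustment over every row, a minimum change of 0.5, centring, and minimums of 25 and 100. The adjustment was tested on simulated data. Groups follow the sample titles. Libraries of a group are 2 clones or 2 replicates, and the labels do not say that replicates were separate cultures, and the spread behind a p-value may be technical. The rows named are those of highest level, the 6 highest and 6 lowest called rows per time, those called repeatedly, those at the threshold, the highest uncalled rows and the smallest p at 0 h; others were named after their values were seen. Members and lists were chosen with earlier results of these data known.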

Additional observations from a re-analysis of the deposited data

How the results depend on the processing

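No paired analysis was possible because the time-course tables hold no values per library, so neither the block by clone nor leaving out a replicate was run. Of 54 alternative counts of calls, 34 were within 1.5 times the reported count and 20 were not. Of 18 alternative medians, 13 kept their sign and 5 changed it. With an adjusted p under 0.01 the positive and negative calls were 29 and 0 at 3 h, 37 and 0 at 6 h, and 6 and 17 at 12 h. Under 0.1 the negative calls were 2 at 3 h and 43 at 6 h, and at 12 h 28 were positive and 201 negative. Adjusted over every row with a p, without the filter on low counts, 16 positive calls were left at 3 h, 39 positive and 1 negative at 6 h, and 8 positive and 49 negative at 12 h. A minimum mean count of 100 left 47 positive calls at 6 h and 1 at 12 h, and a minimum of 25 gave 45 positive calls at 12 h. Requiring 50 or more in each of the 4 tables kept 475 rows, with 5 negative calls at 6 h, 3 positive and 31 negative at 12 h, and a median at 12 h of 0.025 in place of −0.21. That rule also selects on the mean counts of the later libraries. It also gave a median of 0.12 at 6 h and 0.053 at 3 h, and the median at 3 h was 0.0033 over rows with an adjusted p and 0.00075 after centring, against −0.0012. Negative calls outnumbered positive ones at 12 h under each alternative run. Depth per library is unknown, so what it limits cannot be given.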

Other observations

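Of the 30 enhancer rows of highest count, 16 (53.3%) carry a number of 14000 or above, as do 9.32% of all enhancer rows and 9.32% of the high-count rows. What the numbering stands for is not stated in the labels. Over 295 pairs of high-count rows with consecutive numbers the Spearman correlation of the log2 fold changes was −0.0044 at 3 h, 0.049 at 6 h and −0.014 at 12 h, as a description of rows that share their libraries. There were 3 pairs of consecutive numbers called at 1 time with 1 sign and no longer run. They were ENH2652 (0.95) with ENH2653 (0.89) and ENH4547 (1.01) with ENH4548 (1.15) at 6 h, and ENH9813 (−1.47) with ENH9814 (−2.08) at 12 h, in the authors' deposited eRNA tables.

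ENH550 was positive at 0 h (0.85 ± 0.41, p = 0.000919, not passing adjustment) and called negative at 6 h (−0.82 ± 0.38, adjusted p = 0.0422) and 12 h (−2.13 ± 0.62, adjusted p = 0.00525) in the authors' deposited eRNA tables. It was the only 1 of the 8 rows with a value away from 0 at 0 h that was called after 3 h.

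The authors' tables give no p for 2 high-count rows at 3 h (ENH11318 and ENH15000) and 4 at 12 h (ENH4263, ENH4719, ENH14321 and ENH14963), although all were counted. Of these 6 rows, ENH15000, ENH4719, ENH14321 and ENH14963 belong to the 30 of highest count.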
